A study of Mus musculus with 8 samples.

Results

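The IFITM family (interferon-induced transmembrane proteins) was followed in mouse bone marrow derived macrophages through every probe set that the platform annotation names for Ifitm1, Ifitm2, Ifitm3 or Ifitm6. This gave 4 of the 12393 genes that have a singly named probe set and 4 of 22626 probe sets, 1 for each gene, and all 4 passed the signal filter that left 18058 probe sets for the fits. The 4 genes were chosen on their IFN-gamma and calcitriol values in these arrays, so those values are described here without a test, and the difference between genotypes, which the choice did not use, was tested.

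RNA from 8 cultures, 1 per genotype and treatment, was each put on a one-colour array. The Vdr-/- macrophages came from Vdr tm1 Rge knockout mice, which lack a working vitamin D receptor, and were treated with IFN-gamma, a cytokine that activates macrophages, and calcitriol (1alpha,25(OH)2D3, the active form of vitamin D), with IFN-gamma alone, with calcitriol alone, or left untreated. The wild-type macrophages were treated in the same 4 ways. All cells were grown from marrow for 7 days with M-CSF at 50 ng/ml, treated cells were then cultured for 24 to 48 hours, and the sources used here give no doses and no age or strain background. No group had a replicate array, so a spread is given over array pairs that differ in 1 factor, and it holds both noise and any interplay of the treatments.

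IFITM proteins are small membrane proteins of the dispanin (CD225) group that hinder enveloped viruses from fusing with cell membranes. Ifitm3 sits mainly in late endosomes and lysosomes and is the best studied antiviral member, Ifitm2 is a close paralogue of it, and Ifitm1 is found more at the cell surface in human cells. Ifitm1 and Ifitm3 are also known from mouse primordial germ cells, where Ifitm3 was named fragilis. Interferons act on such genes through DNA elements named the interferon-stimulated response element (ISRE), which IRF proteins can bind, and the gamma-activated site (GAS). Calcitriol acts through the vitamin D receptor, which binds direct repeats spaced by 3 bases.

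In the RefSeq annotation of GRCm38.p6 the 4 genes lie next to each other on chromosome 7, in the order Ifitm2, Ifitm1, Ifitm3 and Ifitm6 with no other protein-coding gene between them. Ifitm5, the bone member of the family, lies before Ifitm2, and the glycosyltransferase gene B4galnt4 lies after Ifitm6. The 250 bases before each RefSeq start are printed so that the windows of the 4 genes can be compared, from chr7:140967826-140968075 on the plus strand for Ifitm1 and, on the minus strand, chr7:140955962-140956211 for Ifitm2, chr7:141010745-141010994 for Ifitm3 and chr7:141016893-141017142 for Ifitm6. The Ifitm1 and Ifitm2 starts lie inside longer models of the same gene, so their windows can hold other sequence than a promoter. Capitals mark matches to the ISRE-like word (GAAA, any 2 bases, GAAA) or the GAS-like word (TTC, any 3 bases, GAA), searched on both strands.
Ifitm1: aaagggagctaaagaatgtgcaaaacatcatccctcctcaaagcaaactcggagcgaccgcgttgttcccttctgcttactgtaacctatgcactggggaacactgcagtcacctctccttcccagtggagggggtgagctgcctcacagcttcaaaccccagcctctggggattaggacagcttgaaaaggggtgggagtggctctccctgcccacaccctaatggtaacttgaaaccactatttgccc
Ifitm2: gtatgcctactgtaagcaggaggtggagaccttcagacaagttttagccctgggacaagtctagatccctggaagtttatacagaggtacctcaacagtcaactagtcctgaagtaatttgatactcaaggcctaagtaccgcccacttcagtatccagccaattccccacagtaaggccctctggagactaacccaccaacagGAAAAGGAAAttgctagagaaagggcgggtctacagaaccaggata
Ifitm3: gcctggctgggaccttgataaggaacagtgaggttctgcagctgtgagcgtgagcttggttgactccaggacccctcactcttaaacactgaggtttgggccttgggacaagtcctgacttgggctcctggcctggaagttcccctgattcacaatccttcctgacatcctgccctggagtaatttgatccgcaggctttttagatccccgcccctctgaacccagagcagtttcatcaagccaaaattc
Ifitm6: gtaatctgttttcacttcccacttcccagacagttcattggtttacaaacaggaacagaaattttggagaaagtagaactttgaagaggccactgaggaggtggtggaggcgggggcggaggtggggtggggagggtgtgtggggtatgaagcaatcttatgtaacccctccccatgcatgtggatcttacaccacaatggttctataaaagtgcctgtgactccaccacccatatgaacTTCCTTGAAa
The matches of Ifitm3 lie just after its start, at bases 3 to 29 (chr7:141010716-141010742, minus strand), and this stretch is shown because it is the only one of the 4 windows with both words.
Ifitm3 start: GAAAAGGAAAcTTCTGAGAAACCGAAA

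The search covered 300 bases per window, the 250 before and the 50 after the start. The Ifitm3 stretch holds 2 ISRE-like words, at bases 3 to 12 and 20 to 29, and 1 GAS-like word at bases 14 to 22, which overlaps the second ISRE-like word. Ifitm2 has 1 ISRE-like word at bases -46 to -37, with the same letters as the first word of Ifitm3. Ifitm6 has 1 GAS-like word at bases -10 to -2, and Ifitm1 has neither word. Among all 32851 RefSeq windows 3.44% held the ISRE-like word and 8.30% the GAS-like word. Among antiviral interferon-stimulated genes 11 of the 24 with a window held the ISRE-like word and 8 the GAS-like word. Direct repeats of 6-base copies spaced by 3 bases, each copy ending in GGTCA or GTTCA, were in 0.161% of all windows and in 0 of the 4 Ifitm windows. These are letter matches, which do not show that a factor binds there, and a window without a match says nothing of the factor.

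**Figure D1:**
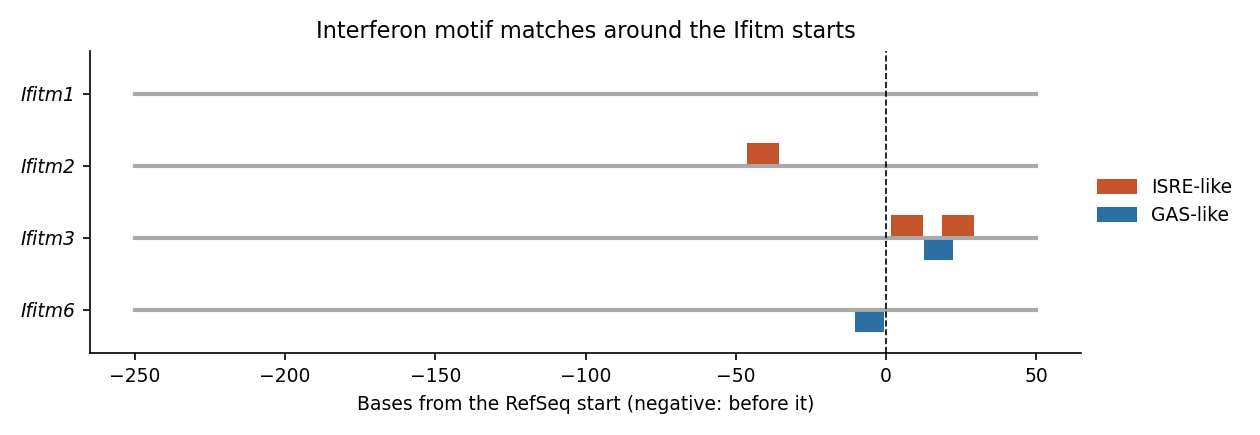
Positions of ISRE-like (above each line) and GAS-like (below each line) words in the 300 bases around the RefSeq start of each gene, with the x axis in bases from the start. Ifitm3 has 3 matches just after its start, Ifitm2 and Ifitm6 have 1 each before it, and Ifitm1 has 0.

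The array labelled wild-type calcitriol and the array labelled Vdr-/- untreated stood apart from the other 6, with a lowest correlation of log2 signal of 0.741 and 0.770, where the other 6 had 0.815 to 0.897 among themselves. They also had the highest Gapdh 3'/5' signal ratios, 7.67 and 4.82, and this ratio rises when labelled RNA is cut short. Of the others, Vdr-/- with IFN-gamma had 3.06 and the remaining 5 had 0.853 to 1.65. The brighter of 2 Vdr probe sets read 23.6, 2.5, 9.8 and 63.2 on the Vdr-/- arrays and 385.9, 82.9, 118.1 and 5.3 on the wild-type arrays (IFN-gamma with calcitriol, IFN-gamma, calcitriol and untreated), so the untreated arrays ran against their labels. Of 9 measured macrophage markers 0 were on any array under the floor of 15.5, the signal below which values were set to it. Csf1r and Lyz2 were bright throughout, while Itgam and Fcgr1 read as low as 80.0 and 145.2, both on the wild-type calcitriol array. The mean differences of the Ifitm genes are also given without the 2 arrays that stood apart. This was done over the pairs that use neither array and from an additive fit (genotype, IFN-gamma and calcitriol) of the other 6 arrays.

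Ifitm3, the endosomal antiviral member, was the gene of the family that was higher with IFN-gamma in most pairs. It read 759.0 and 597.5 on the Vdr-/- arrays with IFN-gamma and 2792.7 and 1115.9 on the wild-type ones (with calcitriol, then without), against 1537.9 and 193.6 on the Vdr-/- arrays without IFN-gamma and 660.3 and 219.3 on the wild-type ones. The arrays with and without IFN-gamma overlapped. The Vdr-/- calcitriol array had the second highest signal of all 8, and wild type with calcitriol alone (660.3) was above Vdr-/- with IFN-gamma alone (597.5). IFN-gamma signals were 5.09-fold higher in wild type without calcitriol, 4.23-fold higher in wild type with it and 3.09-fold higher in Vdr-/- without it, but 2.03-fold lower in Vdr-/- with calcitriol. The mean log2 difference was 1.26 ± 1.55 (SD, n = 4 pairs), and without the arrays that stood apart it was 0.66 over 2 pairs and 0.91 in the additive fit.

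Ifitm2, the close paralogue of Ifitm3, differed by at most 1.70-fold with IFN-gamma in any pair. It read 906.4 and 629.5 on the Vdr-/- arrays with IFN-gamma and 346.5 and 1011.4 on the wild-type ones (with calcitriol, then without), against 1544.3 and 437.4 on the Vdr-/- arrays without IFN-gamma and 352.9 and 1406.8 on the wild-type ones. The groups overlapped. The mean log2 difference was -0.19 ± 0.56 (SD, n = 4 pairs), with 3 pairs lower and 1 higher. Without the arrays that stood apart it was -0.62 over 2 pairs and -1.14 in the additive fit.

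Ifitm6 was higher with IFN-gamma in the wild-type pair given calcitriol and lower in the other 3 pairs. It read 39.9 and 64.7 on the Vdr-/- arrays with IFN-gamma and 677.9 and 8.0 on the wild-type ones (with calcitriol, then without), against 51.5 and 104.8 on the Vdr-/- arrays without IFN-gamma and 208.6 and 50.0 on the wild-type ones. The wild-type arrays with IFN-gamma thus held both the highest and the lowest of the 8 signals. In wild type the signal was 3.25-fold higher with IFN-gamma in the presence of calcitriol and at least 3.23-fold lower without it, a bound because 8.0 is under the floor. In Vdr-/- cells it was 1.29-fold and 1.62-fold lower with IFN-gamma (with calcitriol, then without). The mean log2 difference was -0.26 ± 1.42 (SD, n = 4 pairs). Without the arrays that stood apart its sign depended on the arrays used, with -1.03 over 2 pairs and 0.51 in the additive fit.

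Ifitm1, the member with no interferon word in its window, was dim. It read 5.0 and 37.8 on the Vdr-/- arrays with IFN-gamma and 18.1 and 59.5 on the wild-type ones (with calcitriol, then without), against 65.6 and 52.7 on the Vdr-/- arrays without IFN-gamma and 128.5 and 26.8 on the wild-type ones. Its mean log2 difference with IFN-gamma was -1.06 ± 1.77 (SD, n = 4 pairs), with 3 pairs lower and 1 higher, and without the arrays that stood apart it was -0.47 over 2 pairs and -0.57 in the additive fit. Across the 8 arrays its log2 signal had an SD of 1.02, close to the median SD of 0.981 over 2532 probe sets of like mean signal (within 0.25 log2), so it varied about as much as is usual at this level.

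The same spread set the other members against probe sets of their own brightness. The SD over the 8 arrays was 1.31 log2 for Ifitm3, where 468 probe sets of like signal had a median of 0.448 and a 90th percentile of 0.968. It was 1.65 log2 for Ifitm6, where 1678 such probe sets had a median of 0.733 and a 90th percentile of 1.16. It was 0.864 log2 for Ifitm2, between the median of 0.445 and the 90th percentile of 0.981 of 459 such probe sets. These spreads hold the differences on which the genes were chosen, so they are a description and support nothing.

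**Figure D2:**
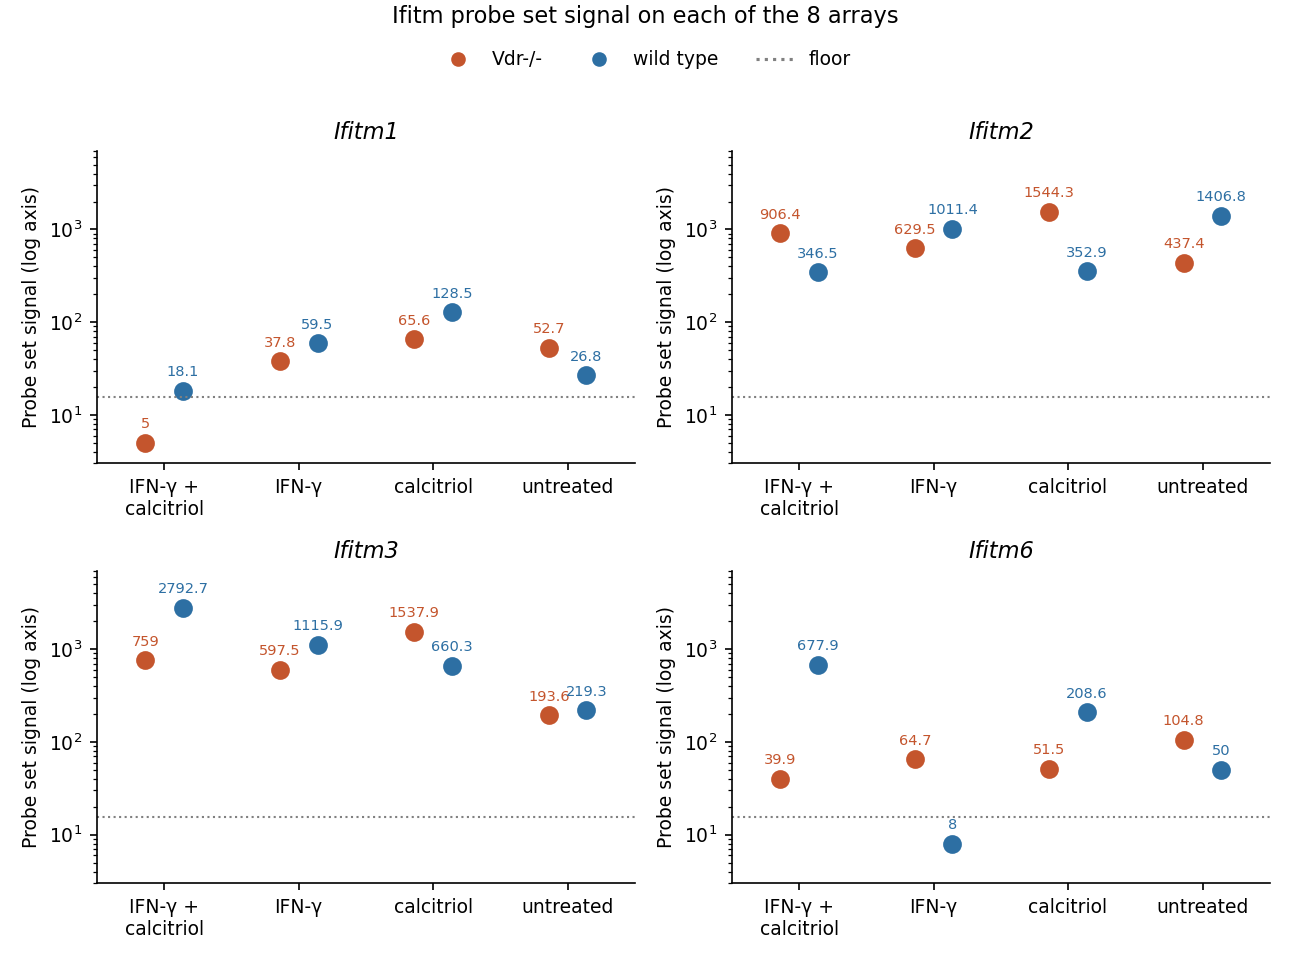
Signal of each Ifitm probe set (log axis) on the 8 arrays by treatment, with Vdr-/- arrays in orange to the left of wild-type arrays in blue and the floor of 15.5 as a dotted line; each point is 1 array with its signal beside it. Ifitm3 peaks at 2792.7 and Ifitm6 at 677.9, both on the wild-type array with IFN-gamma and calcitriol.

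Counted over the family, 1 of the 4 probe sets, that of Ifitm3, was at least 1 log2 (2-fold) higher with IFN-gamma in 3 or more of 4 pairs, and 3.17% of all tested probe sets were. The other 3 were lower in 3 of 4 pairs, as were 33.7% of tested probe sets in at least 3 pairs. None of the 4 passed 1 log2 in the same direction in all 4 pairs, which 0.969% of tested probe sets did upward and 0.642% downward. The choice of the genes used this contrast, so nothing is read from these counts or from those for calcitriol.

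Calcitriol gave another order of the genes. In wild type Ifitm6 and Ifitm3 were higher with calcitriol in both pairs, Ifitm2 was lower in both, and Ifitm1 went both ways. Without the receptor gene Ifitm3 was again higher, while Ifitm6 was lower and Ifitm2 higher in both pairs, the opposite of wild type.

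Ifitm6 read 677.9 and 208.6 on the wild-type arrays with calcitriol, against 8.0 and 50.0 on those without it (with IFN-gamma, then without). The wild-type groups of 2 arrays each did not overlap, but the share of tested probe sets with such a separation was not counted. The difference was at least 43.7-fold with IFN-gamma, where the array without calcitriol was under the floor, and 4.17-fold without it. The mean log2 difference was 3.76 ± 2.40 (SD, n = 2 pairs), and the pair with IFN-gamma, which does not use the arrays that stood apart, gave 5.45. Ifitm6 in Vdr-/- cells read 39.9 and 51.5 with calcitriol, against 64.7 and 104.8 without it (with IFN-gamma, then without), a mean of -0.86 ± 0.23 log2 (SD, n = 2 pairs). Without the untreated array that stood apart the Vdr-/- difference was -0.70. Among dendritic cell markers the integrin gene Itgax was higher on the same arrays, with 1279.2 and 1242.8 on the wild-type arrays with calcitriol, against 263.4 and 652.7 on those without it. The list did not move as a group, since 2 of its 8 measured genes, of 9 listed, were higher in both wild-type pairs with calcitriol, 2 were lower in both and 4 went both ways. These directions were counted on signals that include values under the floor. The summed signal of the list was 1597.0 to 2438.7 with calcitriol and 1130.2 to 1269.8 without it in wild type. On the array with the highest Ifitm6 signal, Flt3 (93.0), Zbtb46 (63.3), Cd83 (966.4) and Itgax had their highest signals of all arrays. On that array 4 of the 8 measured genes, among them Ccr7 and Xcr1, were under the floor. The part of such cells in the result was not tested. Fewer or more cells of a type and a change of RNA per cell cannot be told apart in these bulk samples.

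Ifitm2 read 346.5 and 352.9 on the wild-type arrays with calcitriol, against 1011.4 and 1406.8 on those without it (with IFN-gamma, then without). These groups did not overlap either, with the same limit, and the signal was 2.92-fold and 3.99-fold lower with calcitriol. The mean log2 difference was -1.77 ± 0.32 (SD, n = 2 pairs), and the pair given IFN-gamma, which uses neither array that stood apart, gave -1.55. The Vdr-/- arrays read 906.4 and 1544.3 with calcitriol, against 629.5 and 437.4 without it, a mean of 1.17 ± 0.91 log2 (SD, n = 2 pairs), and 0.53 in the pair without the array that stood apart. Ifitm2 tended to be lower where the Gapdh 3'/5' ratio of the arrays was higher. The Ifitm2 log2 signal had a Pearson r of -0.80 (Spearman rho -0.79) with the log2 ratio over 8 arrays and -0.67 over the 6 without those that stood apart, and 3.36% of tested probe sets had an r that low or lower. For Ifitm6 the r over 8 arrays was 0.48 (Spearman rho 0.71), and 0.38 without the arrays that stood apart. Of tested probe sets 77.1% had an r at or below that of Ifitm6 over 8 arrays, so its r was not unusual. The r was -0.36 (rho -0.55) for Ifitm3 and 0.51 (rho 0.12) for Ifitm1. In Vdr-/- the ratio was 1.07 and 0.853 with calcitriol, against 3.06 and 4.82 without it, and in wild type it was 1.65 and 7.67 with calcitriol, against 1.04 and 1.11 without it. Its part in the Ifitm2 and Ifitm6 values was not tested. Of 9 macrophage markers, 1 was higher in both wild-type pairs with calcitriol, 4 were lower in both and 4 went both ways. In Vdr-/- cells 4 were higher in both pairs, 3 were lower in both and 2 went both ways. Itgam, Fcgr1 and Cd68 were lower in both wild-type pairs and higher in both Vdr-/- pairs, as Ifitm2 was. The part of macrophage state or number in the Ifitm2 values was not tested.

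Ifitm3 was higher with calcitriol in all 4 pairs. In Vdr-/- cells it read 759.0 and 1537.9 with calcitriol, against 597.5 and 193.6 without it (with IFN-gamma, then without), which was 1.27-fold and 7.94-fold higher. In wild type it read 2792.7 and 660.3 with calcitriol, against 1115.9 and 219.3 without it, which was 2.50-fold and 3.01-fold higher. The wild-type groups overlapped because IFN-gamma alone gave 1115.9. The mean log2 difference was 1.67 ± 1.87 in Vdr-/- and 1.46 ± 0.19 in wild type (SD, n = 2 pairs each), and the pairs given IFN-gamma, free of the arrays that stood apart, gave 0.35 in Vdr-/- and 1.32 in wild type.

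Ifitm1 had no common direction with calcitriol. In Vdr-/- cells it read 5.0 and 65.6 with calcitriol, against 37.8 and 52.7 without it (with IFN-gamma, then without). In wild type it read 18.1 and 128.5 with calcitriol, against 59.5 and 26.8 without it. In both genotypes it was lower with calcitriol in the presence of IFN-gamma and higher in its absence. Its mean log2 difference was -0.49 ± 1.13 in Vdr-/- and 0.27 ± 2.81 in wild type (SD, n = 2 pairs each). The pairs given IFN-gamma, free of the arrays that stood apart, gave -1.29 in Vdr-/-, where 5.0 was under the floor, and -1.72 in wild type.

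**Figure D3:**
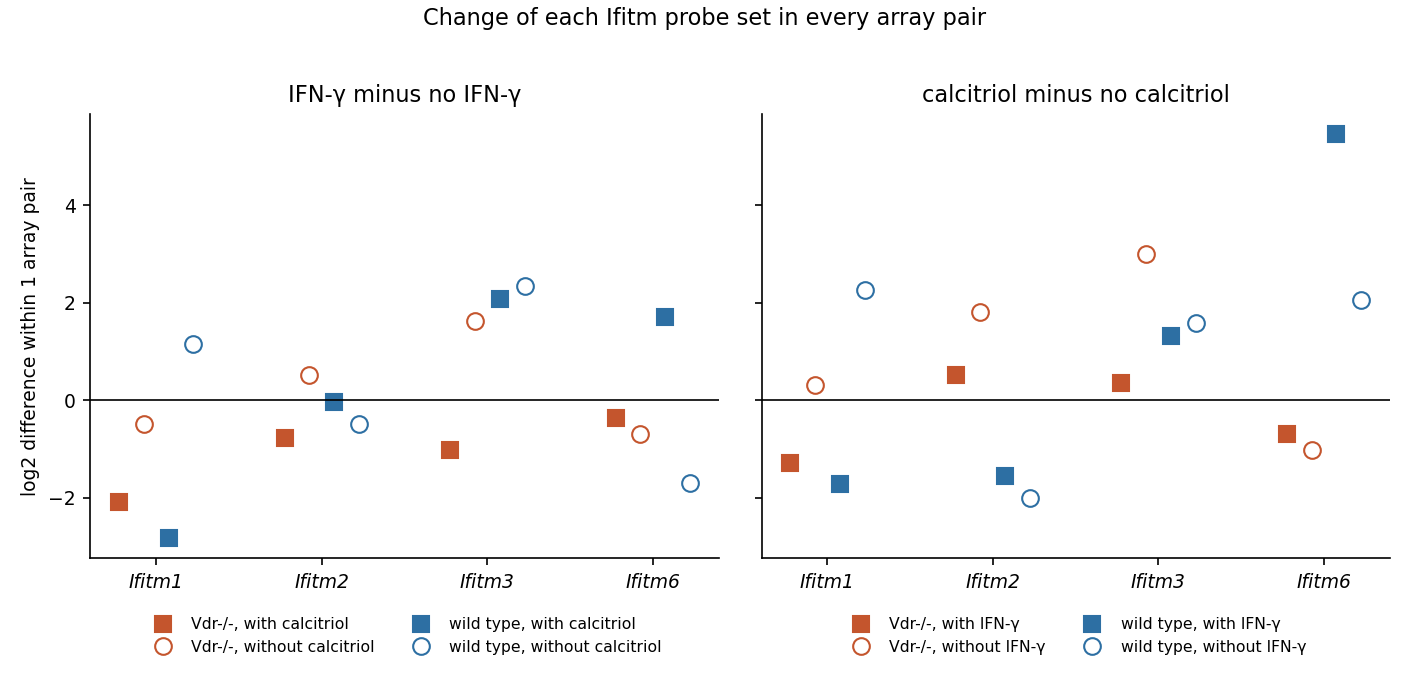
Log2 difference of each Ifitm probe set within every array pair, for IFN-gamma (left) and calcitriol (right), with Vdr-/- pairs in orange and wild-type pairs in blue, filled where the other treatment was present. Ifitm3 lies above 0 in all 4 calcitriol pairs, and Ifitm2 and Ifitm6 lie on opposite sides of 0 in the 2 genotypes.

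By the 2-fold count, 2 of the 4 probe sets, Ifitm3 and Ifitm6, were at least 1 log2 higher in both wild-type pairs with calcitriol, beside 4.32% of tested probe sets, and Ifitm2 was as much lower in both, beside 3.84%. In Vdr-/- cells 0 of the 4 passed 1 log2 in both pairs, where 2.87% of tested probe sets did upward and 3.62% downward. Ifitm3 was higher in all 4 pairs, as were 3.82% of tested probe sets. Ifitm2 and Ifitm6 went opposite ways in the genotypes in all 4 pairs, as did 18.1% of tested probe sets. With the genotype labels of the untreated arrays exchanged, the mean log2 differences with calcitriol kept their sign for Ifitm2 (0.33 in Vdr-/- and -0.93 in wild type), Ifitm3 (1.58 and 1.55) and Ifitm6 (-0.33 and 3.22). For Ifitm1 they became 0.0027 in Vdr-/- and -0.22 in wild type, each of the opposite sign to before. In the exchanged Vdr-/- pair without IFN-gamma, Ifitm6 read 51.5 with calcitriol against 50.0 without it. Ifitm6 thus no longer went opposite ways in all 4 pairs. Ifitm2 read 1544.3 against 1406.8 in that pair, still higher with calcitriol.

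The genotypes were compared over the 4 treatments to ask whether loss of the receptor gene shifts the family as a whole, a contrast that the choice of the genes did not use. None of the 4 passed limma's test, with or without Benjamini-Hochberg adjustment. Over all 18058 probe sets 0% passed after adjustment, and 611 had an unadjusted p under 0.05. The log2 difference of Vdr-/- minus wild type was 0.29 for Ifitm2 (limma SE 0.434, SD over the 4 pairs 1.77). It was -0.44 for Ifitm3 (SE 0.372, SD 1.30), -0.22 for Ifitm1 (SE 0.656, SD 0.853) and -0.74 for Ifitm6 (SE 0.739, SD 2.83). Each had a limma adjusted p of 0.999. The sign differed between treatments for each gene, with Ifitm2 higher in Vdr-/- on both calcitriol treatments and lower on both others, and Ifitm6 the reverse. Ifitm3 was lower in Vdr-/- under both IFN-gamma treatments, with log2 differences of -1.88 with calcitriol and -0.90 without it. Without the arrays that stood apart only 2 pairs were left, both with IFN-gamma. The mean differences over these 2 pairs were 0.35 for Ifitm2, -1.39 for Ifitm3, -0.44 for Ifitm1 and -1.01 for Ifitm6. The additive fit of all 6 arrays that did not stand apart gave 0.42 for Ifitm2, -0.55 for Ifitm3 and -1.34 for Ifitm6, and turned Ifitm1 to 0.37. With the untreated arrays given each other's genotype label they were 1.13 for Ifitm2, -0.35 for Ifitm3, -0.71 for Ifitm1 and -1.28 for Ifitm6, and no gene passed after adjustment in any of these fits (lowest limma adjusted p over all alternatives 0.236, for Ifitm2).

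Ordered by level, Ifitm3 was highest in wild type with both agents, then in Vdr-/- with calcitriol and in wild type with IFN-gamma, and lowest on the 2 untreated arrays at 193.6 and 219.3. Ifitm2 was highest in Vdr-/- with calcitriol, then on the untreated array labelled wild-type, and lowest on the 2 wild-type arrays with calcitriol. Ifitm6 was highest in wild type with both agents and in wild type with calcitriol, followed by the array labelled Vdr-/- untreated at 104.8. Ifitm1 was highest in wild type with calcitriol and lowest on the 2 arrays with both agents. With 1 array per condition there is no spread by which neighbours in these orders could be separated.

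The 4 genes did not all follow each other over the arrays. Over the 8 arrays, which also differ in RNA quality, the Pearson r of log2 signal was -0.78 between Ifitm2 and Ifitm6 and 0.27 between Ifitm3 and Ifitm6. The other 4 pairs of members had r between -0.12 and -0.08. Without the arrays that stood apart the r was -0.76 for Ifitm2 and Ifitm6, but 0.49 for Ifitm3 and Ifitm6, 0.52 for Ifitm1 and Ifitm2, -0.53 for Ifitm1 and Ifitm6, -0.52 for Ifitm2 and Ifitm3 and 0.07 for Ifitm1 and Ifitm3. Probe sequences were not used here, so any cross-hybridisation between these paralogues was not examined.

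The named genes whose log2 signal followed each member most closely were taken from 4851 that varied at least as much as the median tested probe set, by Pearson r over 8 arrays. For Ifitm3 they were the mitosis genes Kif23 (r = 0.95) and Top2a (0.94) and then Gpank1 (0.92). For Ifitm2 they were the tetraspanin gene Cd37 (0.97), the phospholipid transfer protein gene Pltp (0.96) and the integrin gene Itgam (0.95), and for Ifitm6 they were Rgcc (0.95), the chaperone gene Hsph1 (0.93) and Epb41l3 (0.93). For Ifitm1 they were Thnsl1 (0.94), the kinase gene Wee1 (0.92) and the xenobiotic receptor gene Nr1i2 (0.92). With so many genes and 8 arrays, values this high describe the arrays only, and without the 2 arrays that stood apart these r ran between 0.85 and 0.99.

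Genes of the interferon pathway around the family were called higher with IFN-gamma in the main fit. Their lists were chosen with earlier results of these data known. Of 27 antiviral interferon-stimulated genes that passed the filter, of 35 listed, 13 rose and 0 fell by limma, where 3.43% of tested probe sets were called, 2.15% upward and 1.27% downward. Their median log2 change was 1.18, beside -0.08 over all tested probe sets. Ifit2, which binds viral RNA, rose by 4.54 log2 (SE 0.389, limma adjusted p = 1.32e-08), the nucleic acid sensor gene Zbp1 by 3.81 log2, Ifit1 by 3.14 log2 and the dNTP hydrolase gene Samhd1, which restricts retroviruses, by 2.71 log2. The mean of Ifitm3, 1.26, lay near this list's median, while those of the other 3 members were below 0. Without the 2 arrays that stood apart 1 of the 27 rose, Samhd1, and the same was so with no filter. Without intensity-dependent variance 3 did, Samhd1, Ifit2 and Zbp1. Leaving out 1 pair left 3 to 4 called for each of the 3 pairs other than the Vdr-/- calcitriol one, and 11 for that one.

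Of 19 interferon receptor, JAK-STAT and IRF genes that passed the filter, of 20 listed, 8 rose and 0 fell, with a median of 0.69 log2. Socs1, the feedback inhibitor of JAK kinases, rose by 3.73 log2 (SE 0.452, limma adjusted p = 4.68e-06), the transcription factor gene Irf1 by 3.69 log2, the feedback inhibitor gene Socs3 by 2.76 log2 and Stat2, a part of the ISRE-binding complex, by 2.59 log2. Of 16 further genes of the same stretch of chromosome 7, of 22 listed, 1 rose and 0 fell, and the list's median was -0.10 log2. Without the 2 arrays that stood apart 1 of the 19 receptor and factor genes rose, Irf1, and the same was so with no filter. With no intensity trend 2 rose, Irf1 and Socs1, and leaving out single pairs left 2 to 7. The neighbour that rose was Irf7, the interferon regulatory factor of type I responses, by 1.58 log2 (SE 0.313, limma adjusted p = 0.00254). This call was lost without the arrays that stood apart, with no filter and with no intensity trend. It was also lost when any single pair but the Vdr-/- calcitriol one was left out. Of 11 partners and modifiers of IFITM proteins, of 12 listed, 0 rose and 1 fell, the tetraspanin gene Cd9, by 1.20 log2 (limma adjusted p = 0.000891). The Cd9 call was lost without those arrays, with no filter, with no intensity trend and in some fits with 1 pair left out. The list's median was -0.03, and Zmpste24, the protease that acts with IFITM proteins, had a log2 change of -0.33 (limma adjusted p = 0.681).

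The summed signal of stromal markers was lower where IFN-gamma was given. Over 10 of 11 listed genes it was 248.6 to 401.4 on the arrays with IFN-gamma and 595.8 to 1138.6 on those without it. With IFN-gamma 2 to 5 of the 10 were under the floor, and 0 to 2 without it. Of 9 that passed the filter, limma called 1 lower, Col3a1, beside 1.27% of tested probe sets, and 1 was fitted above 0, Lum (0.71 log2). Erythroid, megakaryocyte and mast cell markers summed to 224.7 to 346.9 with IFN-gamma and 477.0 to 761.8 without it, over 9 of 11 genes. Pf4 made up a large part of these sums, with 85.7 to 152.0 with IFN-gamma and 207.9 to 474.7 without it. Of the 6 genes of this list that passed the filter, limma called 1 lower, Pf4, beside 1.27% of tested probe sets. Neutrophil markers summed to 666.8 to 1247.9 with IFN-gamma and 971.9 to 1092.0 without it, over 15 of 16 genes. Of these, S100a8 (63.6 to 209.7), Mmp8 (46.3 to 270.9) and Csf3r (203.4 to 849.1) were above the floor on every array, while the granule gene Elane and S100a9 read at most 41.8 and 45.4. The part of these cells in the Ifitm values was not tested.

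With calcitriol no antiviral gene passed limma's test in either genotype, while their medians differed. In Vdr-/- cells 0 of 27 passed, where 0.194% of tested probe sets did. An unadjusted p under 0.05 was found for 14 of the 27, beside 1147 of all 18058 tested probe sets. Of the 27 genes 23 were fitted above 0, with a median of 1.04 log2 beside -0.08 over all tested probe sets. In wild type 0 of 27 passed, where 0.576% of tested probe sets did. An unadjusted p under 0.05 was found for 3 of the 27, beside 1857 of all 18058 tested probe sets. The wild-type median was -0.20 log2 beside 0.05. The difference of these medians was not tested, and each uses 1 of the arrays that stood apart. Of the 19 receptor and factor genes 0 passed and 1 had an unadjusted p under 0.05 in each genotype, and of the 11 partners 0 did by either measure. Of 17 genes of the calcitriol and receptor axis that passed the filter, of 21 listed, 1 fell in wild type, the lipopolysaccharide co-receptor gene Cd14, by 2.16 log2 (SE 0.366, limma adjusted p = 0.00636), where 0.388% of tested probe sets fell. This call rests on few arrays, since 0 probe sets were called over the whole table when either wild-type pair was left out. Cyp24a1, the calcitriol-degrading enzyme gene whose induction marks receptor activity in many cells, was not called, being lower with calcitriol in both Vdr-/- pairs (limma adjusted p = 0.988) and higher in both wild-type pairs (limma adjusted p = 0.592). Ifitm3 lay at 1.67 log2 in Vdr-/- and 1.46 log2 in wild type, and 3.76 log2 of Ifitm6 in wild type was above every gene of the antiviral and receptor lists there. That mean joins 2.06 log2 without IFN-gamma and 5.45 log2 with it, the latter against a value at the floor. The Ifitm genes were chosen on their calcitriol values, so nothing is read from their place among these lists.

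**Figure D4:**
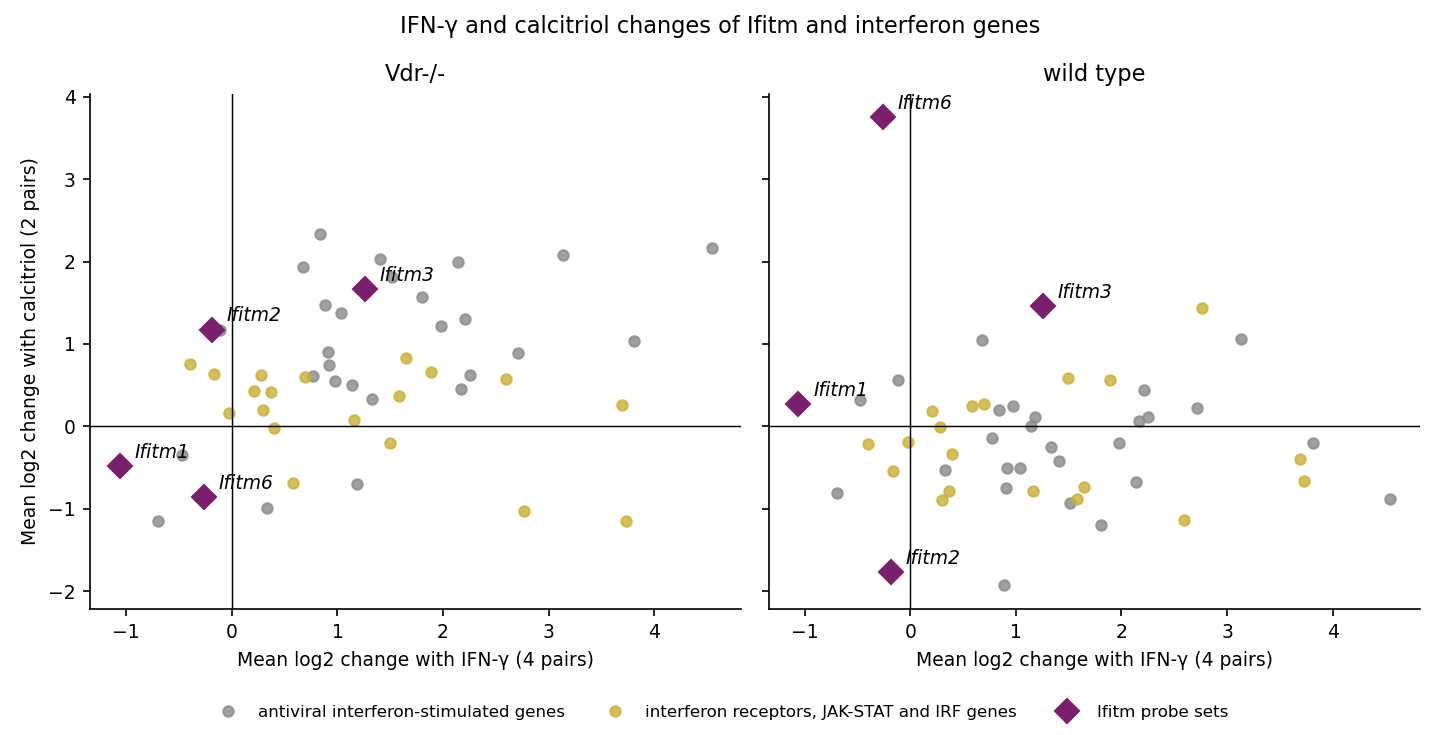
Mean log2 change with IFN-gamma over 4 pairs (x axis) against mean log2 change with calcitriol over 2 pairs (y axis) in Vdr-/- (left) and wild type (right), for Ifitm probe sets (diamonds) and listed interferon genes (dots); both axes use the same arrays. Ifitm3 lies among the antiviral genes on the x axis at 1.26, and Ifitm6 stands at 3.76 on the y axis in wild type, a mean that uses a value at the floor. The Ifitm genes were chosen on both changes, so nothing is read from their places.

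Of the 9 other listed genes of the dispanin family 2 had a probe set. Ifitm10 did not pass the filter, with 4.0, 8.2, 6.3 and 16.4 on the Vdr-/- arrays and 27.5, 6.9, 42.2 and 4.2 on the wild-type arrays (IFN-gamma with calcitriol, IFN-gamma, calcitriol and untreated). Of the brighter of 2 probe sets of Prrt1, which binds AMPA receptors in neurons, 6 of the 8 signals were under the floor, and limma did not call it. Its highest signal was 85.3, in wild type with IFN-gamma.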

How the data were processed

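Total RNA of each macrophage culture was hybridised to 1 one-colour array. The authors deposited 1 table of linear signal intensity per probe set, and the sources used here do not state the software, background correction or summary method. Every array had a 2% trimmed mean of 150.0, so the deposited intensities had been scaled to a common level. Of 22690 probe sets 64 controls were left out. Names came from the platform annotation, which gave 20380 probe sets 1 gene, 691 several and 1555 none.

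Signals under the pooled 25th percentile, 15.5, were set to that floor, and 15.5% of tested values were. Probe sets with at least 1 signal at or above the pooled median, 59.1, were kept, and log2 values were fitted with limma 3.58.1 in R 4.3.3 (intensity trend, Benjamini-Hochberg adjustment over 18058 probe sets, threshold 0.05). IFN-gamma and genotype were fitted with a block for each of 4 pairs (3 residual degrees of freedom), and calcitriol within each genotype (2 residual degrees of freedom). A fold against a value at the floor is a lower bound. Genes with several probe sets were read from the brightest. The number of arrays limits the precision. The SE and p-values from limma use a variance drawn partly from other probe sets of like signal. They can thus differ from the spread over pairs, and they cover only these samples.

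The members and gene lists were chosen with earlier results of these data known. The text names every Ifitm probe set, the other dispanin genes, up to 4 called genes of each list by size of the IFN-gamma change, and the 3 genes most like each member. Promoter sequences and gene order came from RefSeq (GRCm38.p6), in which the 4 genes all matched. Alternatives changed the normalization, floor, filter, variance trend, arrays and untreated labels.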

Additional observations from a re-analysis of the deposited data

Results flagged for a closer look

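The calcitriol change of Ifitm2 differed between the genotypes, since both Vdr-/- pairs were higher with calcitriol and both wild-type pairs were lower. The Vdr-/- change minus the wild-type change was 2.94 log2, and 1.26 log2 with the genotype labels of the untreated arrays swapped.

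The calcitriol change of Ifitm6 ran the other way, with both Vdr-/- pairs lower and both wild-type pairs higher. The Vdr-/- change minus the wild-type change was -4.62 log2, and -3.55 log2 with those labels swapped. After the swap Ifitm6 was no longer lower in the Vdr-/- pair without IFN-gamma, at 51.5 with calcitriol against 50.0 without it. The differences of Ifitm2 and Ifitm6 between the genotypes were not tested, and 18.1% of tested probe sets also moved in opposite directions in all 4 pairs. Each uses both arrays that stood apart. The Gapdh 3'/5' ratio was lower with calcitriol in both Vdr-/- pairs and higher in both wild-type pairs, and its part in these differences was not tested.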

How the results depend on the processing

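With IFN-gamma 619 probe sets were called, but 80 with no filter, 70 with no intensity trend, 53 without the 2 arrays that stood apart (additive fit), and 99 to 420 with 1 array pair left out. Of these pairs, leaving out Vdr-/- without calcitriol gave 99, wild type with calcitriol 123 and wild type without calcitriol 152. Between genotypes 0 were called, and 7 when the untreated arrays swapped genotype labels, with 0 for any pair left out. With calcitriol in Vdr-/- 35 were called, but 18 after quantile normalization, 1 and 58 with the floor at the 10th and 40th percentile, and 0 with no filter, a stricter filter, no intensity trend, the 2 arrays left out or the labels exchanged (1045, 599, 1017, 740 and 610 at an unadjusted p under 0.05). With calcitriol in wild type 104 were called, but 58 after quantile normalization, 5 with the lower floor, 20 with the labels exchanged, and 0 with no filter, a stricter filter, no intensity trend or the 2 arrays left out (1680, 1083, 1406 and 1407 at an unadjusted p under 0.05). Leaving out either pair gave 0 calls in each genotype. The causes were not tested.

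Of 139 alternatives for the Ifitm values 16 changed the sign. The genotype difference of Ifitm1 became 0.032 without the calcitriol pair and 0.37 in the additive fit without the 2 arrays. That of Ifitm2 became -0.33 without the calcitriol pair and -0.08 without the IFN-gamma and calcitriol pair, and without that pair Ifitm3 had 0.046 and Ifitm6 0.37. Leaving out pairs gave -0.62 to 0.032 for Ifitm1, -0.33 to 0.94 for Ifitm2, -0.99 to 0.046 for Ifitm3 and -1.68 to 0.37 for Ifitm6. The lowest limma adjusted p over all alternatives was 0.813, 0.236, 0.834 and 0.629 in the same order. The IFN-gamma difference of Ifitm2 was -1.14 in that additive fit, and that of Ifitm6 was 0.51. The labels give no replicate numbers, so no fit with such numbers as a block was made, and the pairs are arrays that differ in 1 factor.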

Other observations

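Among genes of the calcitriol and receptor axis, IFN-gamma raised the chaperone gene Pdia3 by 1.65 log2 and the cell-cycle inhibitor gene Cdkn1a by 0.97 log2, while Gadd45a, a DNA damage response gene, fell by 1.48 log2 in limma's test. The other 14 of the 17 genes that passed the filter were not called, and 3.43% of all tested probe sets were, 2.15% upward and 1.27% downward. None of the 3 calls held without the 2 arrays that stood apart, with no filter or with no intensity trend.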
